A study of Mus musculus with 6 samples.

Results

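Collagens are the triple-helical proteins of the extracellular matrix, and their RNA was examined here in cultured mouse sympathetic neurons given interferon-gamma, a cytokine secreted by lymphocytes, and in controls. The collagen genes were taken by symbol, as every gene of the array's annotation named Col, a number, a and a number. Of 19087 measured genes, 42 had such a symbol, and they were covered by 101 array features. The RefSeq mouse table holds 44 such symbols, and Col6a3 and Col6a5 are not analysed here. No collagen gene passed the test for a change with interferon-gamma (0 of 42, limma, adjusted p under 0.05), against 1.14% of all genes tested, which were 1.12% higher and 0.021% lower. At an unadjusted p under 0.05, 3 of the 42 were lower (7.14%, against 2.68% of all genes) and 2 higher (4.76%, against 5.27%).

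Two-colour arrays were used, 6 in all. On 3 arrays the Cy5 channel held RNA of sympathetic neurons given IFN-γ at 500 U per ml for 24 h, and on 3 it held RNA of control neurons of the same time point. The Cy3 channel of every array held the same kind of reference, RNA from sympathetic cervical ganglia taken untreated at postnatal day 5, so both groups share the reference and its age, and dyes were not swapped. A value is therefore a log2 ratio of cultured neurons over ganglion, which compares a gene with itself and not with other genes. The labels name no strain, no age of the cultures, no pooling of animals, and nothing that says the replicates came from separate cultures, so the p-values rest on a spread that may be technical.

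Each collagen is built from 3 alpha chains, encoded by 1 or several Col genes, that wind around each other over repeats rich in glycine. Fibrillar collagens form the fibres of connective tissue, type IV collagen forms the sheet of basement membranes, and the remaining types decorate fibrils, form filaments or span the cell membrane. In a sympathetic ganglion the neurons are wrapped by satellite glia and basement membrane and lie among fibroblasts, Schwann cells and vessels, which are known as the main producers of collagen. Interferon-gamma is known to lower type I collagen transcription in fibroblasts, through the factor RFX5 and the transactivator CIITA.

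Of the 42 measured genes, 33 had at least 1 promoter window of 300 bases in the RefSeq tables of build GRCm38.p6, each from 250 bases before to 50 bases after an annotated start. The windows of Col4a1 and Col4a2 are shown because these genes are transcribed away from each other and encode chains of 1 protein, and that of Col1a2 because it encodes a chain of type I collagen. Capitals mark the CCAAT box and the GC box GGGCGG on either strand, so ATTGG and CCGCCC are matches on the opposite strand. The Col4a1 window lies at chr8:11312777-11313076 on the minus strand, the Col4a2 window at chr8:11312555-11312854 on the plus strand, and the Col1a2 window at chr6:4505368-4505667 on the plus strand.
Col4a1: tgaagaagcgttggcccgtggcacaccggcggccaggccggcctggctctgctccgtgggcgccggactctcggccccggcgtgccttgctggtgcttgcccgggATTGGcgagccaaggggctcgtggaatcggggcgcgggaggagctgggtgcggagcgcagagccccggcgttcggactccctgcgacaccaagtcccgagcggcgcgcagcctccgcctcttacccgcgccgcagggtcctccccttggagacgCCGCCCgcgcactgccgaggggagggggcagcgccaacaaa
Col4a2: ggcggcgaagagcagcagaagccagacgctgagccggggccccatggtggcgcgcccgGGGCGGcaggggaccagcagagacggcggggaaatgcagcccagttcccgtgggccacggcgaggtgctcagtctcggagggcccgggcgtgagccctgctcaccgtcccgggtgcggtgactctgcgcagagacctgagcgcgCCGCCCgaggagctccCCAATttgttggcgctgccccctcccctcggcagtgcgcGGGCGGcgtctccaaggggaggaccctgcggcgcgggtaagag
Col1a2: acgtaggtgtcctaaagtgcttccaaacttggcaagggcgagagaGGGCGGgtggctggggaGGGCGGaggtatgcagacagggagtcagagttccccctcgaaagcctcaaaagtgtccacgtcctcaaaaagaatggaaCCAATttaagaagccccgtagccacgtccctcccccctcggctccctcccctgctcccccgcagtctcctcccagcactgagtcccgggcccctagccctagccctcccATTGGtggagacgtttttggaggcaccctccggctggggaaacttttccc

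The Col4a1 and Col4a2 windows share 78 bases, read from opposite strands. Over all 36 windows of measured collagen genes, GGGCGG was found in 61.1% (35.7% of all 32851 windows) and CCAAT in 36.1% (37.4% of all windows). The pattern TTCNNNGAA, where N is any base, was also searched and was found in 2.78% (8.3% of all windows). A match of letters does not show that a factor binds there, and a window without a match says nothing about the factor.

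The first question was how collagen RNA in control neurons compared with the ganglion. Most collagen ratios lay a little below 0. The median over the 42 genes of the mean control ratio was -0.37, which is 0.773 times the ganglion level, against -0.03 over all 19087 genes. Without control array 2 the collagen median was -0.12. On all 3 control arrays 19 collagen genes lay below 0, which is 45.2% of them against 32.6% of all genes. Only Col6a4, Col4a6 and Col9a2 lay above 0 on all 3 control arrays (7.14%, against 27.5% of all genes). The reference is a single RNA source in 1 dye with an unknown spread of its own, so these levels are given without a test. In bulk RNA, fewer cells of a type and less RNA per cell cannot be told apart.

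The lowest control mean belonged to Col26a1, a minor collagen outside the large families, with ratios of -2.06, -2.10 and -1.27 on the IFN-γ arrays and -1.43, -2.02 and -2.22 on control arrays 1, 2 and 3. It was the single member below -1 on all 3 control arrays (2.38%, against 2.12% of all genes), and its mean of -1.89 ± 0.41 (SD, n = 3) is 0.270 times the ganglion level. Its 2 features differed, with control ratios of -2.36 to -3.40 for one and -0.50 to -1.26 for the other. Next came Col28a1, which is known from Schwann cells of peripheral nerve, at 0.04, -1.81 and -1.64 on the control arrays, and Col8a2, a short chain of network-forming collagen, at -0.67, -1.40 and -1.07. Col2a1, the cartilage fibril chain (-0.78 ± 0.69), and Col14a1, a fibril-associated collagen (-0.77 ± 0.41), complete the 5 lowest. The 2 features of Col14a1 differed, with control ratios of 0.38, -0.40 and -0.54 for one and -1.87, -1.98 and -0.19 for the other. The spread of Col28a1 and Col2a1 was nearly as large as their mean distance from 0.

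The 5 highest control means lay near the ganglion level. They belonged to Col9a2 at 0.33 ± 0.08, Col25a1 at 0.28 ± 0.48, Col4a5 at 0.23 ± 0.91, Col6a4 at 0.19 ± 0.11 and Col1a1 at 0.15 ± 0.74 (SD, n = 3 control arrays). Col25a1 encodes a membrane-spanning collagen that neurons make, and its control ratios were 0.17, -0.14 and 0.80. Its positive mean came from 1 of 3 features, at 1.25, 0.32 and 2.66, while another lay at -0.02 to 0.02 and another at -0.75 to -0.25. Col4a5 rested on control array 3, with 1.26 there and -0.47 and -0.09 on arrays 1 and 2. Among these 5 genes, Col9a2 and Col6a4 alone were above 0 on every control array, and no collagen gene reached 1 on all 3 (0.592% of all genes did).

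**Figure D1:**
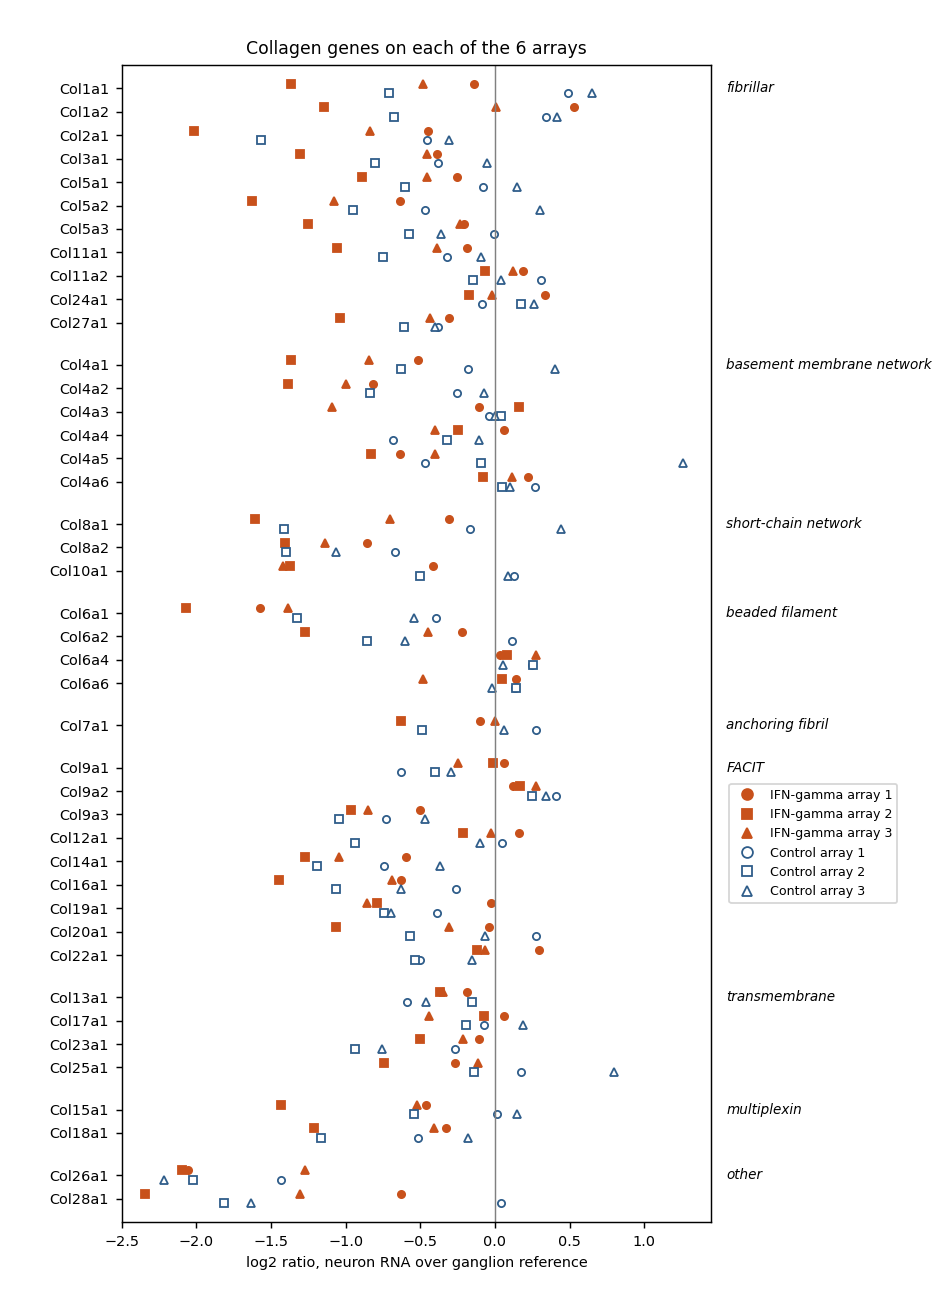
Log2 ratio of neuron RNA over ganglion reference (horizontal axis) of all 42 collagen genes on each array, grouped by structural class. Filled orange symbols are the 3 IFN-γ arrays and open blue symbols the 3 control arrays, with circles, squares and triangles for replicates 1, 2 and 3. In both groups most squares, the arrays of replicate 2, lie to the left of the other symbols.

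Collagen values differed more between arrays of 1 group than those of most genes. The median SD over the control arrays was 0.37 for the collagen genes and 0.19 for all genes. The collagen median was -0.21, -1.05 and -0.44 on IFN-γ arrays 1, 2 and 3, and -0.17, -0.62 and -0.07 on control arrays 1, 2 and 3. Array 2 was thus the lowest in each group, although the medians of all genes lay between -0.03 and 0 on every array. For 29 of the 42 genes (69.0%) array 2 had the lowest value in both groups, against 18.2% of all genes. It held in 10 of 11 fibrillar genes, 6 of 9 fibril-associated genes, 3 of 6 type IV chains, 2 of 4 type VI chains and both multiplexins.

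Medians of fibroblast, glial, mural and endothelial markers were also lowest on array 2 of each group. The 15 fibroblast markers, which include no collagen, had medians of 0.35, -1.0 and 0.11 on IFN-γ arrays 1, 2 and 3, and of 0.01, -0.64 and 0.22 on control arrays 1, 2 and 3, and 12 of the 15 were lowest on array 2 in both groups. Among them the fibroblast proteoglycan Lum had -4.76 on IFN-γ array 2 and -3.85 on control array 2, against -1.76 to 1.30 on the other 4 arrays. The 13 glial markers had medians of -0.18, -1.29 and -0.18 on the IFN-γ arrays and -0.06, -0.89 and -0.37 on the control arrays, with 9 of 13 lowest on both arrays of replicate 2. The 12 sympathetic neuron markers had medians of -0.10, -0.04 and -0.17 on the IFN-γ arrays and 0.20, 0.17 and -0.32 on the control arrays, and 0 of 12 were lowest on array 2 in both groups. Mural cell medians were -0.50, -0.89 and -0.24 on the IFN-γ arrays and -0.02, -0.57 and -0.02 on the control arrays, but only 4 of 11 mural markers were lowest on array 2 in both groups. Endothelial medians were -0.54, -0.78 and -0.63 on the IFN-γ arrays and -0.62, -0.83 and -0.29 on the control arrays, with 8 of 14 markers lowest on both arrays of replicate 2. Whether these cells take part in the collagen values was not tested, and ratios cannot show whether a marker is absent.

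**Figure D2:**
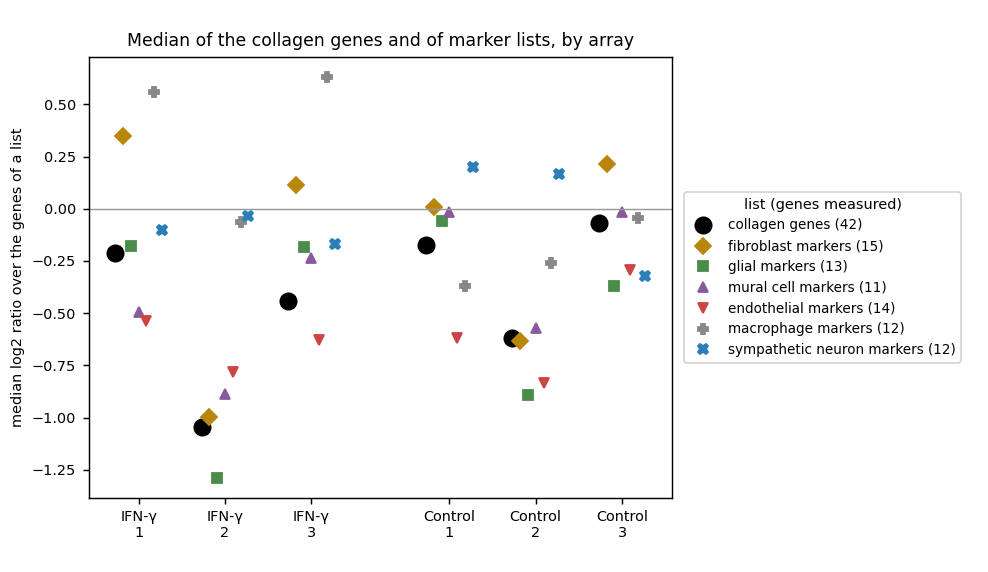
Median log2 ratio (vertical axis) of the collagen genes and of 6 marker lists on each of the 3 IFN-γ and 3 control arrays, with 1 symbol per list. The collagen, fibroblast, glial, mural and endothelial medians are lowest on replicate 2 of each group, and the neuron median is lowest on replicate 3 of each group.

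The second question was whether interferon-gamma changed collagen RNA. Of the textbook targets of the cytokine, 9 of 9 measured genes rose in the limma test, against 1.12% of all genes. Their differences ran from 2.29 for Irf1 to 7.14 for Gbp3 on the log2 scale. Of 42 genes, 33 had a lower mean on the IFN-γ arrays (78.6%, against 48.8% of all genes), and the median difference was -0.20, against 0.01 for all genes. Differences below -0.5 were found for 9 genes (21.4%, against 4.35% of all genes), namely Col10a1, Col6a1, Col4a5, Col1a1, Col4a1, Col5a2, Col4a2, Col15a1 and Col25a1. This count was 6 without IFN-γ array 2 (5.72% of all genes), 14 without IFN-γ array 1 (4.99%) and 15 without control array 2 (6.31%).

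The values of the IFN-γ arrays lay entirely below those of the control arrays for 1 gene, Col6a1 (2.38%, against 5.58% of all genes), and entirely above for Col9a1 and Col22a1 (4.76%, against 8.08%). The median difference stayed negative without both arrays of replicate 2, but changed sign without IFN-γ array 2 alone. That array had an SD over features of 0.883, against 0.630 and 0.660 on IFN-γ arrays 1 and 3 and 0.635 to 0.755 on the control arrays. It also had 715 values of exactly 0, against 309 to 551 on the other 5 arrays, and the lowest array weight in limma, 0.541 against 0.768 to 2.06, and the part of these in the collagen values was not tested. Without IFN-γ array 2 the median difference was 0.02 and 21 of 42 genes had a lower mean, against 47.0% of all genes. Without both arrays of replicate 2 the median was -0.17 and 31 of 42 genes were lower, against 46.9% of all genes. At control means of -2 to -1, where 3 collagen genes lay, all genes differed from the control mean by medians of 0.73, -0.17 and 0.57 on IFN-γ arrays 1, 2 and 3. At control means of 1 to 2, where no collagen gene lay, the medians were -0.68, 0.02 and -0.54. Genes were sorted by the same control mean that was subtracted, so a shift toward 0 is partly built in. Between -1 and 0, where 28 collagen genes lay, the median difference of all genes was 0.06.

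**Figure D3:**
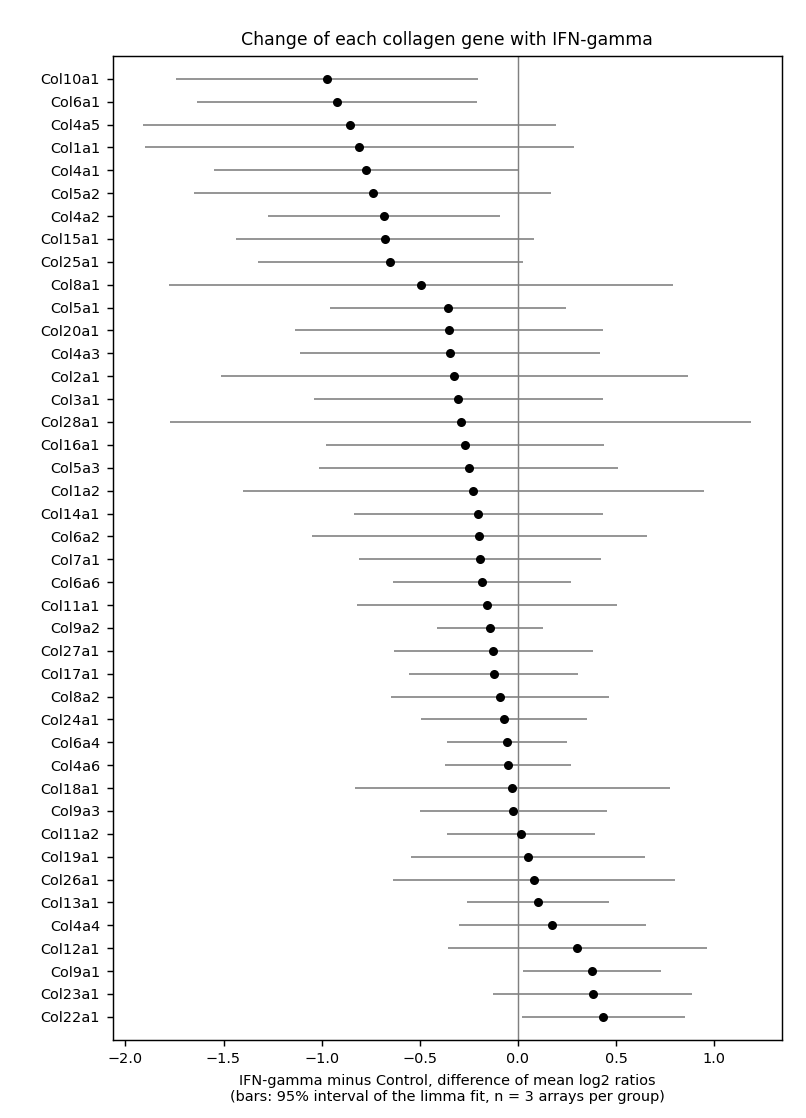
Difference of the mean log2 ratio, IFN-γ minus control, for the 42 collagen genes in order of size. Points are the differences and bars the 95% intervals of the limma fit, each for its gene alone. 5 of the intervals exclude 0, and no gene passed after adjustment over all 19087 genes.

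Type I collagen, the main fibre of connective tissue, is made of chains encoded by Col1a1 and Col1a2. Col1a1 had ratios of -0.14, -1.37 and -0.48 on the IFN-γ arrays, against 0.49, -0.71 and 0.65 on the control arrays. Control array 2 lay below 2 of the 3 IFN-γ arrays, so the groups overlapped. The difference was -0.81 ± 0.45 (SE, 95% interval -1.90 to 0.28, limma adjusted p = 0.709), which leaves room for 0.268 to 1.22 times the control level. Col1a2 had 0.53, -1.14 and 0.01 on the IFN-γ arrays, against 0.34, -0.68 and 0.42 on the control arrays, a difference of -0.23 ± 0.49. Its 2 features did not move alike, with differences of 0.01 and -0.46, and on IFN-γ array 2 they read -0.80 and -1.49. Col1a1 minus Col1a2 was -0.67, -0.22 and -0.49 on the IFN-γ arrays and 0.15, -0.03 and 0.23 on the control arrays, a contrast chosen after its values were seen and not tested. On IFN-γ array 2 the Col1a1 ratio lay between the 2 features of Col1a2, so the sign of the contrast there depends on the feature.

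Col1a1 and Col2a1 had 12 features each. For Col1a1, 10 of the 12 features lay within 0.5 of their median on every array, and their SD within an array was 0.03 to 0.12. All 12 features of Col1a1 had negative differences, from -1.16 to -0.69. For Col2a1, 10 of 12 features lay together, at -2.65 to -2.47 on IFN-γ array 2, while the other 2 read 1.05 and 0.13 there, and 11 of the 12 differences were negative. Over all 12 features the SD within an array was 0.08 to 0.29 for Col1a1 and 0.24 to 1.23 for Col2a1, against SDs between arrays of 0.63 (IFN-γ) and 0.74 (control) for Col1a1 and of 0.82 (IFN-γ) and 0.69 (control) for Col2a1.

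**Figure D4:**
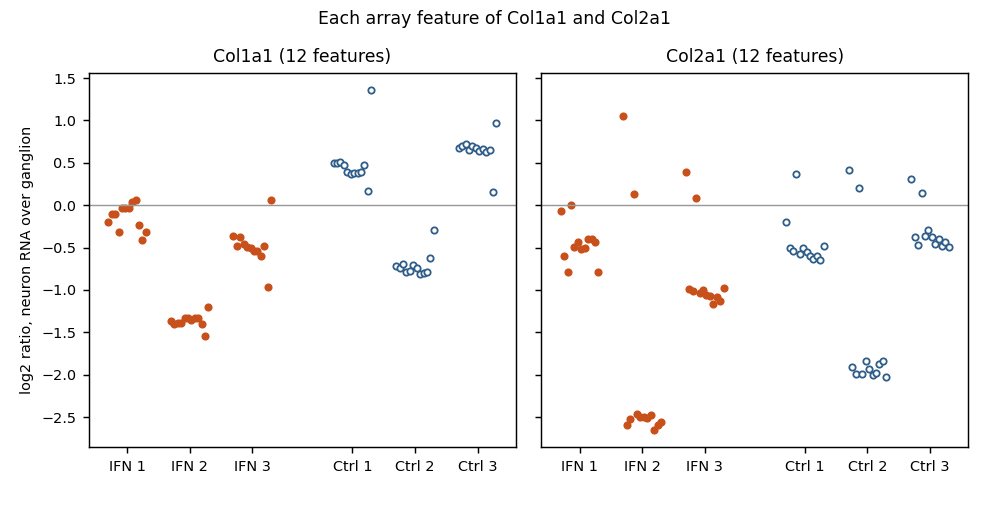
Log2 ratio of every array feature of Col1a1 (left) and Col2a1 (right), 12 each, on the 3 IFN-γ arrays (filled) and the 3 control arrays (open). Most features of an array lie together with a few apart, and the arrays of replicate 2 are lowest in both groups.

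Among the other fibrillar genes, Col3a1, the chain of type III collagen of soft tissue, had -0.39, -1.31 and -0.45 on the IFN-γ arrays, against -0.38, -0.80 and -0.05 on the control arrays. The difference was -0.30 ± 0.31. The chains of type V collagen, which sets the diameter of fibrils, differed by -0.36 ± 0.25 for Col5a1, -0.74 ± 0.38 for Col5a2 and -0.25 ± 0.32 for Col5a3 (SE). Col5a2 had -0.64, -1.62 and -1.08 on the IFN-γ arrays, against -0.47, -0.95 and 0.30 on the control arrays, and the highest of the IFN-γ values lay above control array 2. The Col5a1 ratios were -0.25, -0.89 and -0.46 on the IFN-γ arrays, against -0.08, -0.60 and 0.15 on the control arrays, and those of Col5a3 were -0.21, -1.25 and -0.23, against -0.01, -0.57 and -0.36. In all 3 type V genes the groups overlapped. Of 11 fibrillar genes 10 had a negative difference, the exception being Col11a2 at 0.01, and the class median was -0.25.

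The basement membrane chains Col4a1 and Col4a2, join into 1 protein found in all basement membranes. Col4a1 had -0.52, -1.37 and -0.84 on the IFN-γ arrays, against -0.18, -0.63 and 0.41 on the control arrays. Col4a2 had -0.82, -1.39 and -1.0 on the IFN-γ arrays, against -0.25, -0.84 and -0.07 on the control arrays. The Col4a1 mean lay above that of Col4a2 on all 6 arrays, by 0.02 to 0.48, with the widest gap on control array 3. This order came from 1 of 3 Col4a1 features, at 0.69, -0.42 and 0.04 on the IFN-γ arrays and 0.41, 0.20 and 1.64 on the control arrays. Another Col4a1 feature lay below both Col4a2 features on every array, so the order depends on the feature. The highest IFN-γ value of each gene lay above its control array 2, for Col4a2 by 0.02. The differences were -0.77 ± 0.32 (limma adjusted p = 0.628) and -0.68 ± 0.25 (adjusted p = 0.544), and all 5 features of this pair were negative, from -0.89 to -0.64.

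The other type IV chains, known from kidney glomeruli and other specialised basement membranes, varied separately. Col4a3 had -0.10, 0.16 and -1.09 on the IFN-γ arrays, against -0.04, 0.04 and 0.00 on the control arrays, and its low value on IFN-γ array 3 came largely from 1 of 3 features, at -2.39. Col4a4 had 0.06, -0.24 and -0.40 on the IFN-γ arrays, against -0.68, -0.32 and -0.11 on the control arrays. Col4a5 had -0.64, -0.83 and -0.40 on the IFN-γ arrays, against -0.47, -0.09 and 1.26 on the control arrays, and its difference of -0.86 ± 0.44 came from a single feature and was -0.34 without control array 3. Col4a6, its neighbour on chromosome X, lay close to the ganglion level on all 6 arrays, from -0.08 to 0.27.

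Type VI collagen, which forms beaded filaments around cells and nerve fibres, held the member with the lowest p. Col6a1 had -1.57, -2.07 and -1.38 on the IFN-γ arrays, against -0.40, -1.33 and -0.54 on the control arrays. Every IFN-γ array lay below every control array, the closest pair by 0.06. The difference was -0.92 ± 0.30 (SE, 95% interval -1.63 to -0.21), or 0.528-fold, with an unadjusted p of 0.0189 and a limma adjusted p of 0.450. The adjusted p was 0.0782 without both arrays of replicate 2, its lowest under any alternative run. Col6a1 was measured by 1 feature, and its partner chain Col6a2 differed by -0.20 ± 0.36, with features at -0.43 and 0.04. Col6a2 had -0.22, -1.27 and -0.45 on the IFN-γ arrays, against 0.12, -0.86 and -0.60 on the control arrays, and Col6a4 and Col6a6 differed by -0.06 and -0.18.

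The lowest difference of all belonged to Col10a1, the short-chain collagen of hypertrophic cartilage, at -0.97 ± 0.32 (SE, limma adjusted p = 0.476). It had -0.41, -1.37 and -1.42 on the IFN-γ arrays, against 0.13, -0.50 and 0.08 on the control arrays, from a single feature, and IFN-γ array 1 lay above control array 2. Col15a1 and Col18a1, collagens at the outer face of basement membranes, differed by -0.68 ± 0.32 and -0.03 ± 0.33. Col18a1, whose end fragment is endostatin, had -0.33, -1.21 and -0.41 on the IFN-γ arrays, against -0.52, -1.16 and -0.18 on the control arrays. Among the 4 membrane-spanning collagens, Col25a1 differed by -0.65 ± 0.28, and its 3 features ranged from -1.70 to 0.02, the lowest from a single feature. The class medians were -0.51 for 6 type IV chains, -0.50 for 3 short-chain, -0.35 for 2 multiplexin, -0.19 for 4 type VI, -0.02 for 9 fibril-associated and -0.01 for 4 membrane-spanning genes.

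At the upper end stood Col22a1, known from the junctions of muscle and tendon, at 0.43 ± 0.17 (SE), Col23a1, a membrane-spanning collagen, at 0.38 ± 0.21, and Col9a1, a fibril-associated collagen of cartilage, at 0.38 ± 0.15. None passed the test (limma adjusted p = 0.604, 0.707 and 0.592). Col22a1 had 0.30, -0.12 and -0.06 on the IFN-γ arrays, against -0.50, -0.54 and -0.15 on the control arrays. Col9a1 had 0.06, -0.01 and -0.24 on the IFN-γ arrays, against -0.63, -0.40 and -0.30 on the control arrays. Col23a1 had -0.11, -0.50 and -0.21 on the IFN-γ arrays, against -0.26, -0.94 and -0.76 on the control arrays, and its 3 features were all positive, from 0.18 to 0.60. In Col9a1 and Col22a1, each of 1 feature, the groups did not overlap, while in Col23a1 they did.

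Genes that make, modify and bind collagen were set beside the chains. None of 19 measured genes of collagen folding and modification passed the test in either direction (1.14% of all genes did), with a median difference of -0.06. They ranged from -0.74 ± 0.18 for P4ha3, a prolyl hydroxylase subunit (limma adjusted p = 0.255), to 0.31 ± 0.33 for P3h2, another prolyl hydroxylase. None of 12 genes of procollagen processing and crosslinking passed either, from -1.20 ± 0.60 for Lox, which crosslinks collagen, to 0.92 ± 0.28 for Adamts3, which trims procollagen (adjusted p = 0.397, and 0.0211 without IFN-γ array 2). Lox had 1.01, 1.0 and 1.0 on the IFN-γ arrays, against 1.41, 1.50 and 3.69 on the control arrays, so the control spread came from array 3. For Lox the IFN-γ arrays lay entirely below the control arrays (adjusted p = 0.679 by limma), and every array lay above the ganglion level. Such a separation was found for 2 of the 12 genes, against 5.58% of all genes, and the opposite one for 1, against 8.08%.

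No call was made among 12 collagen-degrading proteases and their inhibitors (Timp1 at -0.65 to Mmp8 at 0.90), 13 basement membrane partners such as laminins (Lama5 at -0.61 to Lamc3 at 0.29) or 16 fibril partners (Thbs1 at -1.12 to Lum at 0.98 ± 1.64). At the share of 1.14% over all genes, lists this short would often hold no call. Mmp8, a neutrophil collagenase, passed without both arrays of replicate 2 (1.55, limma adjusted p = 0.0369). Of 12 genes of transforming growth factor beta signalling, which drives collagen synthesis, none passed, from -1.48 ± 0.56 for its target Ccn2 to 0.22 for Tgif1. Tgfb1 itself had -0.85, -0.70 and -0.86 on the IFN-γ arrays, against 0.27, -0.25 and -0.32 on the control arrays, with a limma adjusted p of 0.301. The IFN-γ arrays lay entirely below the control arrays for 4 of the 12 genes, against 5.58% of all genes. These were Tgfb1, Tgfbr1, Ccn2 and Skil, and no gene of the list lay entirely above. Tgfb1 was named after its values were seen.

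Passing genes were found in 2 of these lists, 1 in each, against 1.12% of all genes that passed as higher. Among 10 factors of the RFX and CIITA route, Ciita rose by 2.51 ± 0.15 (SE, limma adjusted p = 0.000662) and the other 9 did not pass. Ciita had 2.82, 2.88 and 2.94 on the IFN-γ arrays, against 0.14, 0.33 and 0.63 on the control arrays. Its partner Rfx5 differed by 0.43 ± 0.15 (adjusted p = 0.514). Among 12 collagen receptors, Lair1, an inhibitory receptor of leukocytes, rose by 1.13 ± 0.16 (adjusted p = 0.0343), with 1.13, 0.68 and 0.91 on the IFN-γ arrays, against -0.18, -0.41 and -0.07 on the control arrays. Lair1 no longer passed without IFN-γ array 1 or 3 or without any 1 of the control arrays (adjusted p 0.0881 to 0.178), nor without both arrays of replicate 2 (0.0577).

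Marker lists of other cells held 1 passing gene, C1qa of macrophages, which rose by 1.64 ± 0.23 (limma adjusted p = 0.0288) and was lost without any 1 array other than IFN-γ array 2 (0.0897 to 0.163). Of all genes, 1.12% passed as higher. Macrophage medians over 12 markers were 0.56, -0.07 and 0.63 on the IFN-γ arrays and -0.37, -0.26 and -0.04 on the control arrays. The median difference of these 12 was 0.60, from -0.46 for Mrc1 to 1.64 for C1qa, and 2 were below 0. For 5 of the 12 the IFN-γ arrays lay entirely above the control arrays, against 8.08% of all genes. The part of macrophages in the value of Lair1 was not tested. No gene passed among 15 fibroblast (median difference 0.03, Mfap5 at -1.0 to Lum at 0.98), 13 glial (-0.08, Pou3f1 at -1.12 to Kcnj10 at 0.89), 11 mural (-0.52, Tagln at -1.24 to Abcc9 at 0.89), 14 endothelial (-0.09, Emcn at -1.11 to Erg at 0.30) or 12 neuronal markers (-0.16, Dbh at -0.27 to Prph at 0.27).

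The genes whose ratios followed those of Col1a1 most closely over the 6 arrays were Wwtr1, Plekhb1, Ccnd3, Adgre5 and Col5a1, with Pearson's r of 0.990 to 0.998. These 6 points come from 2 groups and share the arrays and the reference, so r is a description. Wwtr1, a transcriptional coactivator of the Hippo pathway, had -0.82, -1.75 and -0.97 on the IFN-γ arrays, against -0.21, -1.20 and -0.09 on the control arrays. None of the 5 passed the test for a change with interferon-gamma (limma adjusted p 0.706 to 0.795).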

How the data were processed

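The authors deposited 1 log2 ratio per array feature, from Agilent Feature Extraction per the submitters' processing notes. Its version, the background correction and the dye normalization are not given in the sources used here. The base of the log was inferred from the range of the values, -9.00 to 10.73, and the direction, neuron over ganglion, from the dyes in the labels, so both are assumptions. Array medians lay between 0 and 0.005, so each array was already centred. Signal over background was not used here, so a ratio near 0 can come from a gene not measured in either channel.

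Of 45220 features, 33653 had 1 gene in the platform annotation, 56 several and 11511 none. Gene numbers matched 33517 of them to RefSeq (GRCm38.p6) for symbols. Features of a gene were averaged within each array. The difference, IFN-γ minus control, was fitted by lmFit and eBayes (limma 3.58.1, R 4.3.3) and tested two-sided. P-values were adjusted over 19087 genes by Benjamini and Hochberg, and 0.05 was the threshold. The fit was tested on simulated data. The number of arrays, 3 per group, limits the precision.

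The collagen genes and lists were chosen with earlier results of these data known. Named by rule were collagens past the threshold, the 5 highest and 5 lowest control means, the 3 highest and 3 lowest differences, the chains of types I, III, IV, V, VI and XVIII, and from each list the passing genes or else its extremes. Alternatives were quantile and spread scaling, the replicate number as a block, other ways to combine features, array weights, robust eBayes, older symbols, and leaving out each array. Replicate numbers were not taken as a pairing in the main fit or where groups are said to overlap. Deviations of same-numbered arrays from their group means correlated at 0.06, 0.31 and -0.03 for replicates 1, 2 and 3. The value of replicate 2 was the highest of any IFN-γ and control array, so whether the numbers pair the arrays stays unsettled.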

Additional observations from a re-analysis of the deposited data

How the results depend on the processing

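The count of collagen genes past the threshold was 0 of 42 under all 16 alternatives run (limma). With the replicate number as a block, 166 of all genes were called (0.87%) in place of 217 (1.14%). In that fit 10 collagen genes were lower and 1 higher at an unadjusted p under 0.05. The share of all genes at that p was not counted with the block, so these 2 counts have nothing to be set against. The main fit had no block because the labels give 2 groups of 3 arrays and state no pairing. Correlations of the deviations cannot settle the pairing, since deviations from a mean of 3 arrays are tied to each other. Lair1 and C1qa did not pass with the block (adjusted p = 0.0618 and 0.0550), and Lair1 did not with arrays scaled to 1 spread (0.0758). Over all genes the count of calls was 113 to 508 when 1 array was left out, highest without IFN-γ array 2, and 322 without both arrays of replicate 2. The collagen median difference was -0.36 to 0.02 when 1 array was left out, and it changed sign without IFN-γ array 2. With array weights 24 of 42 collagen genes had a negative difference (48.0% of all genes did), in place of 33 in the main fit (48.8% of all genes). The median control level kept its sign, from -0.43 to -0.12 when 1 control array was left out, lowest in size without control array 2. Of 832 values of 52 named genes, 789 kept direction and side of the threshold. Another 14 lost the call, all of Lair1 or C1qa, and 2 gained it. The remaining 27 turned sign, none of them past the threshold. When 1 array was left out, the difference was -0.19 to 0.31 for Col26a1, -0.27 to 0.10 for Col8a2, -0.72 to 0.13 for Col2a1, -0.59 to 0.24 for Col1a2, -0.41 to 0.12 for Col6a2, -0.30 to 0.25 for Col18a1, -0.69 to 0.30 for Col28a1, -0.12 to 0.0337 for Col4a6, -0.43 to 0.0941 for Col5a3, -0.60 to 0.0269 for Col4a3, -0.30 to 0.0108 for Col6a6 and -0.23 to 2.80 for Lum. Col26a1 also turned with quantile normalization (-0.10) and with arrays scaled to 1 spread (-0.0045). With array weights Col8a2 (0.0044), Col2a1 (0.016), Col1a2 (0.0855), Col6a2 (0.0061) and Col18a1 (0.22) turned, and Col6a4 (0.0008) without both arrays of replicate 2, a setting chosen after seeing the data, as was 1 value per accession. The cause of these changes was not tested. A filter on dim features was not run, since signal was not analysed here.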
